A study of Mus musculus with 3 samples.

Results

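The mRNA cargo of apoptotic bodies (ABs) was read for 10 tetraspanin genes, Cd9, Cd37, Cd53, Cd63, Cd81, Cd82, Cd151, Tspan4, Tspan14 and Tspan31. They were chosen by gene symbol, by summing the reads of every listed transcript that GENCODE M21 assigns to the symbol. All 10 had values, so none was absent, and they are 10 of 15832 genes and 51 of 56651 transcripts in the mRNA table. The study compared the RNA content of ABs, the membrane-bound fragments that a dying cell sheds, at 3 stages of osteoclast formation, and deposited 1 library per stage, so there are no replicates and no difference can be set against a spread between samples. Titles and cell types in the labels name the cells, whereas the study describes the material as ABs, which is how the libraries are treated here.

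All cells came from the bone marrow of C57BL/6 mice of postnatal week 11, reported as male, with no genetic change named. Bone marrow macrophages (BMMs) were grown from floating marrow cells with M-CSF, the macrophage growth factor, at 50 ng/mL for 72 h. Preosteoclasts (pOCs) received M-CSF at 30 ng/mL and RANKL, the cytokine that drives osteoclast formation, at 100 ng/mL for 24 h. Mature osteoclasts (mOCs) received the same pair of factors for 72 h or more, according to the labels. All 3 cultures were then made apoptotic. The labels name alendronate at 500 μM for 12 h as the inducer, whereas the paper names staurosporine. Some times and doses of M-CSF in the paper also differ from the labels, whose values are given here. How many animals or cultures went into a library is not given in the sources used here, and ABs pelleted by centrifugation can carry other vesicles and debris.

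Tetraspanins are small membrane proteins that cross the lipid bilayer several times and show a short and a long loop outside the cell. They bind integrins, immunoglobulin-type proteins, proteases and each other, and so gather these partners in patches of the membrane. CD9, CD63 and CD81 are common markers of extracellular vesicles, CD37 and CD53 are largely restricted to leukocytes, and CD9 and CD81 have been studied in the fusion of mononuclear phagocytes, the step by which pOCs become multinucleated mOCs. What is measured here is mRNA inside ABs, not the proteins on their surface.

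The mRNA table summed to 9100082, 7387317 and 7705592 reads in BMM-, pOC- and mOC-ABs. At this depth 3 reads equal 0.330, 0.406 and 0.389 RPM, that is, reads per 1000000 reads of the mRNA table, the scale used below for levels of 1 gene across libraries. Where 3 values of a gene stand in a row, they are those of BMM-, pOC- and mOC-ABs. The summed RPM of 10 osteoclast markers, of which 9 were listed and Calcr was not, were 345, 581 and 1870 in BMM-, pOC- and mOC-ABs, while those of 7 macrophage markers were 5870, 2788 and 1812. Nfatc1, at 282, 375 and 1098 RPM, made up most of the osteoclast sum. Of the 9 listed, only Itgb3, with 6, 3 and 0 reads, had lower RPM in pOC- and mOC-ABs than in BMM-ABs. Summed markers of B cells, T cells, platelets, stromal cells and endothelial cells lay between 0 and 6.10 RPM in every library, with Ms4a1, Cd3e, Cd8a, Pf4, Ppbp, Gp9, Col1a1 and Lepr unlisted, and none of 5 neutrophil and 4 erythroid markers was listed. Intervals are exact 95% intervals of the read counts and cover counting error only, not a spread between samples. As the reads carry no molecular identifiers, copies of 1 molecule may count as separate reads, and the intervals can be too narrow.

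Part of the results below concerns genes whose reads were divided differently among transcripts in different libraries. The letters that tell such transcripts apart are shown first for 3 of these genes. Each line gives 24 bases across the exon boundary where a pair of transcripts parts, read from the GENCODE M21 transcripts, 5′ to 3′, with the side on which the pair differs in capitals.
Tspan4-201: CGGCGCGCACAGagctgaagcgct
Tspan4-202: TGGTGGCCAGAGagctgaagcgct
Cd82-201: GTCACTGAACAGgttgctccagga
Cd82-202: CCCAGGCACCAGgttgctccagga
Cd37-201: atctaccgtgagGGCTGCGCGCAG
Cd37-204: atctaccgtgagGTGGGACTAGCG
On GRCm38 the boundary lies at position 141482487 of chromosome 7 for Tspan4. Those of Cd82 and Cd37 lie at 93437470 of chromosome 2 and 45235407 of chromosome 7. In Tspan4 and Cd82 the pair differs before the boundary, outside the coding part, and the coding parts are the same, with 714 and 798 bases. The leading pair of Tspan14 also has the same coding part, of 810 bases. Cd37-201 and Cd37-204 part within the coding sequence, which has 909 bases in the first and 756 in the second. Cd37, Cd82, Tspan14, Tspan31, Cd9 and Cd53 lie on the minus strand and the other 4 genes on the plus strand.

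All 10 tetraspanins had a lower level in pOC-ABs than in BMM-ABs, as had 51.5% of all genes with at least 20 reads. In mOC-ABs 9 of the 10 were lower than in BMM-ABs, beside 54.6% of all genes, and Cd37 was level. Summed over the 10 genes, 6668, 3407 and 4005 reads were counted in BMM-, pOC- and mOC-ABs, or 733 (715 to 751), 461 (446 to 477) and 520 (504 to 536) RPM. This sum was 1.59-fold (1.52 to 1.66) lower in pOC-ABs and 1.41-fold (1.36 to 1.47) lower in mOC-ABs than in BMM-ABs. In these bulk libraries, fewer cells of a type and less RNA per cell cannot be told apart.

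**Figure D1:**
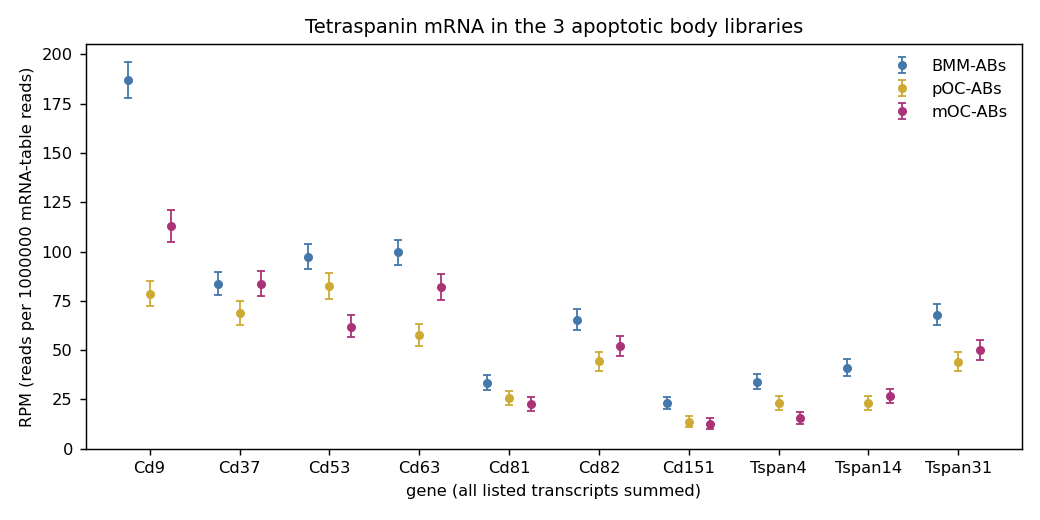
Levels of the 10 tetraspanin genes in RPM, 1 point for each library, with BMM-ABs in blue, pOC-ABs in yellow and mOC-ABs in red and exact 95% counting intervals as bars. The BMM-AB point of Cd9 stands highest at 187, and Cd37 is the gene whose BMM-AB and mOC-AB points are level at 83.7.

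Between genes, levels were compared per length, as the FPKM of a gene's transcripts summed. In BMM-ABs Cd9 had the highest summed FPKM, 156 (148 to 163), followed by Cd63 with 90.2 (84.4 to 96.3). Cd53, Tspan31, Cd37 and Cd82 came next at 55.9, 51.1, 50.4 and 48.4 FPKM, and the intervals of neighbours in this group overlap. Tspan4 followed at 29.5 (26.3 to 32.9) and Cd81 at 22.2 (19.8 to 24.9), and Tspan14 and Cd151 closed the order at 17.2 and 16.1, with overlapping intervals. Cd9 and Cd63 thus led the order, and Cd81, the other common vesicle marker among the 3, stood near its end.

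The order was partly different in the other libraries. In pOC-ABs Cd9 (67.5 FPKM, 62.1 to 73.2) was still first, but Cd63 (52.4), Cd53 (47.4) and Cd37 (45.0) had overlapping intervals. In mOC-ABs the order was Cd9 at 95.6, Cd63 at 76.7 and Cd37 at 61.0 FPKM, with no overlap between neighbours. Cd53, which followed Cd63 in BMM-ABs, stood lower there at 35.6 (32.5 to 39.0), between Cd82 at 39.4 and Tspan31 at 35.2, whose intervals overlap with it. Of the reads of the 10 genes, Cd9 took 25.5%, 17.1% and 21.7% in BMM-, pOC- and mOC-ABs.

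G1, pOC-ABs against BMM-ABs, asks what the ABs of cells that have just met RANKL carry beside those of their precursors. The log2 ratios of the 10 genes ran from −1.25 to −0.24, with a median of −0.60, beside a median of −0.02 over all 12702 genes with at least 20 reads in the 3 libraries together. Past 1.5-fold lower were 5 of the 10, Cd9, Cd63, Cd151, Tspan14 and Tspan31, beside 15.6% of all genes, and past 2-fold lower only Cd9, beside 6.05%. Among the 8376 genes with at least 400 reads, near the depth of the shallowest member, the shares of all genes were 12.7% and 3.63%. No member was past 1.5-fold higher, beside 13.9% of all genes.

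Cd9, the tetraspanin that pairs with the immunoglobulin-type protein Igsf8 and is a marker of vesicles, lies on chromosome 6 at 125460266 to 125494791. It had 1703, 581 and 869 reads in BMM-, pOC- and mOC-ABs, or 187, 78.6 and 113 RPM. BMM-ABs were highest, pOC-ABs lowest and mOC-ABs between, with no overlap of the 3 counting intervals. In G1 Cd9 was 2.38-fold (2.16 to 2.62) lower, and in G2 1.66-fold (1.53 to 1.80) lower.

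The coding transcript Cd9-201 held most of these reads, 1610, 501 and 776, and its log2 ratio in G1 was −1.38. The non-coding transcript Cd9-202, a processed transcript in the annotation, had 77, 67 and 80 reads, with a G1 ratio of 0.10 (−0.39 to 0.59) on the log2 scale. The share of Cd9 reads on Cd9-202 was accordingly 4.52%, 11.5% and 9.21% in BMM-, pOC- and mOC-ABs. By the pair of log2 ratios to BMM-ABs, the genes nearest to Cd9 among 9858 genes with at least 200 reads were Naglu, Plxnb2 and S1pr2, at distances of 0.022, 0.024 and 0.027. These distances are far smaller than the counting intervals of Cd9, so which genes are nearest is not resolved.

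Cd63, a tetraspanin of late endosomes and lysosomes and of the vesicles made there, lies on chromosome 10 at 128900989 to 128912822. Its reads were 907, 425 and 632 in BMM-, pOC- and mOC-ABs, or 99.7, 57.5 and 82.0 RPM. As with Cd9, pOC-ABs were lowest and mOC-ABs lay between, and the 3 intervals are separate. Cd63 was 1.73-fold (1.54 to 1.95) lower in G1 and 1.22-fold (1.10 to 1.35) lower in G2. The coding transcript Cd63-201 held 88.8%, 93.9% and 89.9% of its reads.

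Cd81, another of the common vesicle markers and a close partner of Cd9, lies on chromosome 7 at 143052739 to 143067934. It had 303, 189 and 174 reads in BMM-, pOC- and mOC-ABs, or 33.3, 25.6 and 22.6 RPM. BMM-ABs were highest, while the levels of pOC-ABs and mOC-ABs were within counting error, with a log2 ratio of −0.18 (−0.49 to 0.12) between them.

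Most Cd81 reads were divided between the coding transcript Cd81-201 and a transcript that keeps an intron, Cd81-206. Cd81-201 had 166, 114 and 77 reads and Cd81-206 had 126, 64 and 92. In mOC-ABs their shares were 44.3% (36.7 to 52.0) and 52.9% (45.2 to 60.5), intervals that overlap. In mOC-ABs the coding transcripts held 45.4% of Cd81 reads, in BMM-ABs 55.8% and in pOC-ABs 62.4%. A share range as wide as that of Cd81, 19.0 percentage points, was found in 40.8% of the genes with at least 2 listed transcripts and at least 50 reads in every library. On coding transcripts alone the log2 ratio of Cd81 in G2 was −0.86, and on all transcripts −0.56.

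Cd37 and Cd53, largely restricted to leukocytes, had log2 ratios in G1 of −0.28 and −0.24. Those were nearest to 0 among the 10 genes, but the interval of Cd81, −0.65 to −0.11, covers both, and on coding transcripts alone Cd81 was nearest to 0, at −0.22. Cd37, which tempers signalling in B cells and myeloid cells, lies on chromosome 7 at 45233632 to 45239115 and had 762, 509 and 645 reads in BMM-, pOC- and mOC-ABs. These were 83.7, 68.9 and 83.7 RPM, so that BMM-ABs and mOC-ABs were level, with a log2 ratio of 0.00 (−0.15 to 0.15), and pOC-ABs were lower by 1.22-fold (1.08 to 1.36). On the summed FPKM, which weighs a read on a shorter transcript more, Cd37 was instead higher in mOC-ABs, 61.0 against 50.4, a log2 ratio of 0.28.

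Cd53, a pan-leukocyte tetraspanin, lies on chromosome 3 at 106759921 to 106790149 and has 1 listed transcript. It had 886, 610 and 478 reads in BMM-, pOC- and mOC-ABs, or 97.4, 82.6 and 62.0 RPM. mOC-ABs were lowest here, and the 3 intervals are separate. Cd53 was 1.18-fold (1.06 to 1.31) lower in G1 and 1.57-fold (1.40 to 1.76) lower in G2.

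Cd82 and Cd151 are tetraspanins of adhesion. Cd82, known as a suppressor of metastasis, lies on chromosome 2 at 93419111 to 93463140 and had 594, 327 and 401 reads, or 65.3, 44.3 and 52.0 RPM in BMM-, pOC- and mOC-ABs. Its ratio was 1.47-fold (1.29 to 1.69) lower in G1 and 1.25-fold (1.10 to 1.43) lower in G2. Cd151, a partner of the integrins that bind laminin, lies on chromosome 7 at 141467392 to 141471473 and had the fewest reads of the 10 genes, 211, 101 and 97.

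Cd151 stood at 23.2, 13.7 and 12.6 RPM, higher in BMM-ABs than in the other libraries, which were within counting error of each other. The fold was 1.70 (1.33 to 2.17) lower in G1 and 1.84 (1.44 to 2.37) lower in G2. Most of its reads, 157, 63 and 69, lay on Cd151-203. Cd151-202, which shares the whole of Cd151-203 and has 157 further bases, had 22, 11 and 17.

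Tspan4, a tetraspanin of migrasomes, the vesicles that migrating cells leave on their retraction fibres, follows Cd151 on chromosome 7 after 3766 bases, at 141475240 to 141493427. Its reads were 310, 170 and 119 in BMM-, pOC- and mOC-ABs, or 34.1, 23.0 and 15.4 RPM. Unlike Cd9 and Cd63, it was lowest in mOC-ABs, and the 3 intervals are separate. Tspan4 was 1.48-fold (1.22 to 1.80) lower in G1 and 2.21-fold (1.78 to 2.75) lower in G2. The genes nearest to its pair of log2 ratios were Mob3a, Slc2a8 and Msh5, at distances of 0.0089, 0.022 and 0.045, again far within counting error.

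Tspan4 shares 292 of its 2178 exonic bases with Chid1 on the opposite strand. Chid1 had 478, 248 and 172 reads and log2 ratios of −0.65 in G1 and −1.23 in G2, close to those of Tspan4, −0.57 and −1.14. Whether the counting used strand is not given in the sources used here, so reads in the shared bases cannot be told apart.

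Tspan14, a partner of the membrane protease Adam10, lies on chromosome 14 at 40906445 to 40966807. It had 374, 171 and 205 reads in BMM-, pOC- and mOC-ABs, or 41.1, 23.1 and 26.6 RPM. BMM-ABs were highest, and the other libraries were within counting error of each other, with a log2 ratio of 0.20 (−0.10 to 0.50). Its fold was 1.78 (1.48 to 2.14) lower in G1 and 1.54 (1.30 to 1.84) lower in G2.

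Tspan31 lies on chromosome 10 at 127067280 to 127070264, tail to tail with the cell cycle kinase gene Cdk4, and is amplified with it in sarcomas. It had 618, 324 and 385 reads, or 67.9, 43.9 and 50.0 RPM, again highest in BMM-ABs. Tspan31 was 1.55-fold (1.35 to 1.78) lower in G1 and 1.36-fold (1.19 to 1.55) lower in G2. It shares 641 of its 2193 exonic bases with Cdk4, which had 2651, 2170 and 2963 reads and log2 ratios of 0.01 and 0.40, so the neighbours differed in direction in G2. As with Tspan4 and Chid1, reads in the shared bases cannot be told apart without the strand setting.

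G2, mOC-ABs against BMM-ABs, uses the same BMM-AB library as G1, so both comparisons share that library's counting error. The log2 ratios in G2 ran from −1.14 to 0.00, with a median of −0.59 beside −0.05 over all genes. 5 of the 10 were past 1.5-fold lower, beside 19.5% of all genes with at least 20 reads and 14.1% of those with at least 400. These were Cd9, Cd53, Cd151, Tspan4 and Tspan14. Past 2-fold lower was Tspan4, 1 of 10, beside 8.98% of all genes, and no member was past 1.5-fold higher, beside 10.3%. With the upper quartile as scale, 3 of the 10 were past 1.5-fold, and no share of all genes is given for that scale.

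G3, mOC-ABs against pOC-ABs, sets late against early osteoclasts. The 10 log2 ratios ran from −0.58 to 0.52 with a median of 0.19, beside −0.05 over all genes. None was past 1.5-fold in either direction, beside 24.0% of all genes with at least 20 reads and 14.2% of those with at least 400. Cd9 and Cd63 stood out as higher in mOC-ABs, with log2 ratios of 0.52 (0.37 to 0.67) and 0.51 (0.33 to 0.69), and Cd37 and Cd82 were higher by 0.28 (0.11 to 0.45) and 0.23 (0.02 to 0.45). Tspan4 and Cd53 were lower, with log2 ratios of −0.58 (−0.93 to −0.23) and −0.41 (−0.59 to −0.24). For Cd81, Cd151, Tspan14 and Tspan31 the interval included 0.

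**Figure D2:**
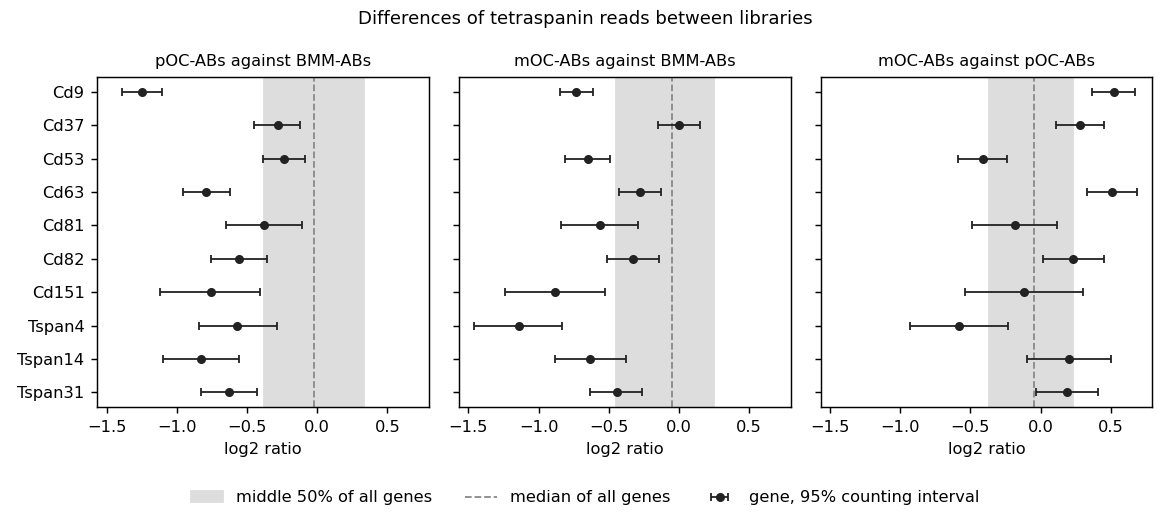
Log2 ratios of RPM for the 10 genes in G1 (left), G2 (middle) and G3 (right), with exact 95% counting intervals as bars; the grey band holds the middle 50% of all genes with at least 20 reads and the dashed line their median. In G1 every point lies left of 0, in G2 all but Cd37, and in G3 the points lie on both sides of 0.

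Which transcript held most of a gene's reads differed between libraries for 4 members, Cd81, Cd82, Tspan4 and Tspan14, of the 9 with more than 1 listed transcript. Beside this stand 25.5% of the 7890 genes with at least 2 listed transcripts and at least 50 reads in every library. Cd37 had equal reads on its leading pair in pOC-ABs and is not counted. How the authors divided reads that fit several transcripts of a gene is not given in the sources used here. The leading pairs of Tspan14, Tspan4, Cd82 and Cd81 share at least 66.7% of the bases of either transcript, whereas Cd37-204 shares 43.8% of its bases with Cd37-201. In mOC-ABs the leads of Tspan4 and Cd81 were within counting error, so for these 2 of the 4 genes the change of leading transcript is not resolved at this depth. The lead of Cd82-202 in mOC-ABs, 42.6% (37.7 to 47.6) against 36.9% (32.2 to 41.8) for Cd82-201, was within counting error too. In BMM-ABs and pOC-ABs the intervals of this pair were separate. All intervals of transcript shares and ratios take the division of reads among transcripts as given. They do not cover error in that division, so separate intervals alone do not settle a change of transcript.

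Tspan14 showed the widest shift. The transcript from the upstream start, Tspan14-201, held 272 of 374, 23 of 171 and 187 of 205 reads, or 72.7% (67.9 to 77.2), 13.5% (8.72 to 19.5) and 91.2% (86.5 to 94.7). Tspan14-202, which starts within an intron of Tspan14-201, held 97, 143 and 15 reads, or 25.9%, 83.6% and 7.32%. The intervals of Tspan14-201 do not overlap between libraries, if the division of reads between the pair is taken as given. By these counts pOC-ABs alone were led by Tspan14-202.

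A range of 77.8 percentage points or more in the share of some transcript was reached by 2.03% of the 7890 genes, whose median range was 13.9. In G1 Tspan14-201 was 9.60-fold (6.27 to 15.4) lower and Tspan14-202 had a log2 ratio of 0.86 (0.48 to 1.25), although the gene as a whole was 1.78-fold lower. In G3 the log2 ratios were 2.96 and −3.31. The transcripts have 2475 and 2477 bases, of which 2441 are shared, so the call of one or the other rests on 34 and 36 bases of their own.

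In Tspan4 the difference in mOC-ABs lay mainly on one start. Tspan4-202 had 179, 107 and 51 reads in BMM-, pOC- and mOC-ABs, and Tspan4-201 had 104, 47 and 60. Tspan4-202 led in BMM-ABs and pOC-ABs with 57.7% (52.0 to 63.3) and 62.9% (55.2 to 70.2) of the reads, and Tspan4-201 in mOC-ABs with 50.4% (41.1 to 59.7), against 42.9% (33.8 to 52.3) for Tspan4-202, intervals that overlap. In G2 the log2 ratio was −1.57 (−2.05 to −1.12) for Tspan4-202 and −0.55 (−1.04 to −0.08) for Tspan4-201. Ranges as wide as that of Tspan4, 22.8 percentage points, were found in 34.7% of genes.

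In Cd82 the transcript Cd82-201 had 294, 67 and 148 reads, and Cd82-202 had 190, 163 and 171. Cd82-202 was thus nearly level over the libraries, with log2 ratios of 0.08 in G1 and 0.09 in G2, while Cd82-201 was 3.56-fold (2.72 to 4.72) lower in G1. Cd82-202 has no base of its own, since all its 1657 bases lie in Cd82-201, which has 167 more. The non-coding Cd82-209 had 33, 56 and 41 reads and the shorter coding Cd82-211 had 77, 41 and 41.

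In Cd37 the share of Cd37-201 was 18.8%, 43.0% and 20.8% in BMM-, pOC- and mOC-ABs, with 143, 219 and 134 reads. Cd37-204 had 454, 219 and 315 reads. Cd37-201 was therefore higher in pOC-ABs than in BMM-ABs, with a log2 ratio of 0.92 (0.61 to 1.23), while Cd37-204 was 1.68-fold (1.43 to 1.99) lower. Ranges at least as wide were found in 26.9% of genes for Cd82 and in 32.8% for Cd37.

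**Figure D3:**
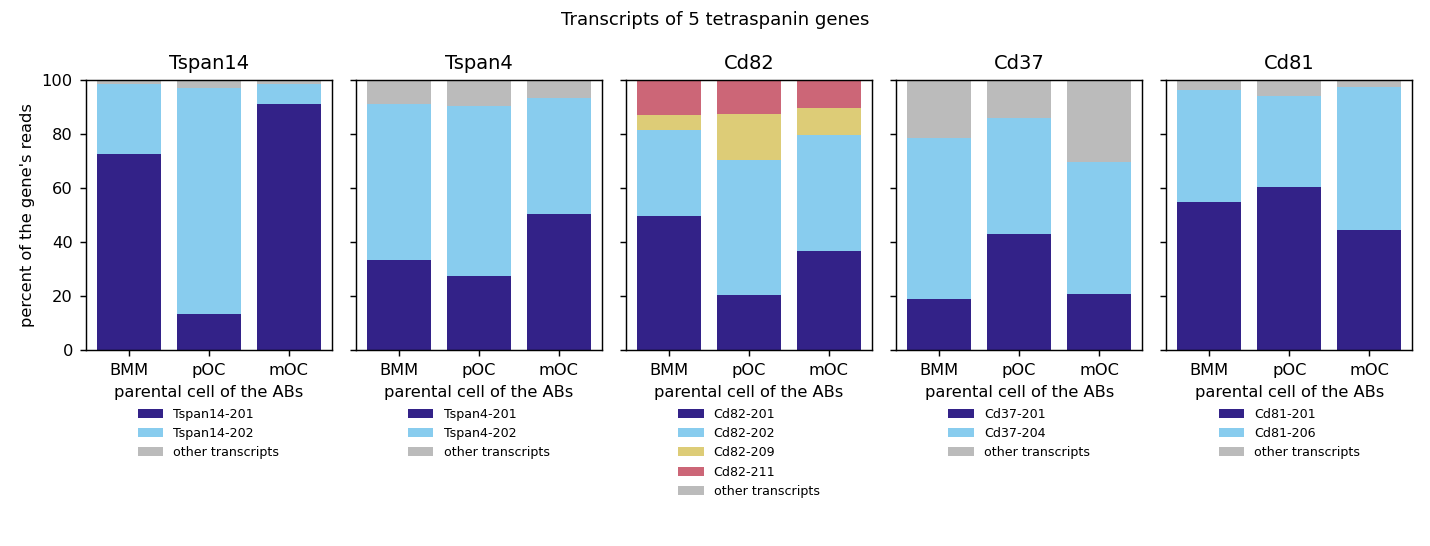
Shares of the reads of 5 genes on their main transcripts, in percent of the gene's reads, for the 3 AB libraries named by parental cell; colours mark transcripts and grey the rest. The dark bar of Tspan14-201 is 72.7%, 13.5% and 91.2% in BMM-, pOC- and mOC-ABs, the widest shift among the 5 genes.

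The starts of Tspan4 and Tspan14 are shown as the data bear on them. Each window holds 250 bases before and 50 after a RefSeq start site on GRCm38.p6, and capitals mark matches on either strand to GGGCGG (the GC box), TATAAA (the TATA box), CACGTG (an E-box), TGACTCA (the AP-1 motif) or AGAGGAAG (a PU.1 motif). The window chr7:141474986-141475285 on the plus strand has the start nearest that of Tspan4-201, and chr7:141476130-141476429 on the plus strand the start nearest that of Tspan4-202. The window chr14:40966847-40967146 on the minus strand is that of the upstream RefSeq start of Tspan14, at 40966896. It does not reach the start of Tspan14-201 in GENCODE, at 40966807. Another Tspan14 window in the table, chr14:40948160-40948459 on the minus strand, is not printed, and no window holds the start of Tspan14-202.
Tspan4, upstream start: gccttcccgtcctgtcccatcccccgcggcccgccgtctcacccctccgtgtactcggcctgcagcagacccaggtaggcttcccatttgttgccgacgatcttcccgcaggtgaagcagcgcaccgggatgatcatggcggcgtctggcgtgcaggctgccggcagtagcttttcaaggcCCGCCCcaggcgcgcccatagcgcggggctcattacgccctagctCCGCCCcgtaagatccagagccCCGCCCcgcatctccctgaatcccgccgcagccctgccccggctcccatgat
Tspan4, downstream start: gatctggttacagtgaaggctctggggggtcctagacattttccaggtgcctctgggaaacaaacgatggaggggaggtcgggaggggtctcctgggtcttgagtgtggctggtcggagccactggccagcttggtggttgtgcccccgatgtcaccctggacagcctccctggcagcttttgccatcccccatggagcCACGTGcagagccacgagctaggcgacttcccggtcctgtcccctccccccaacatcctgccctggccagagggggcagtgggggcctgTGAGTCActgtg
Tspan14, upstream start: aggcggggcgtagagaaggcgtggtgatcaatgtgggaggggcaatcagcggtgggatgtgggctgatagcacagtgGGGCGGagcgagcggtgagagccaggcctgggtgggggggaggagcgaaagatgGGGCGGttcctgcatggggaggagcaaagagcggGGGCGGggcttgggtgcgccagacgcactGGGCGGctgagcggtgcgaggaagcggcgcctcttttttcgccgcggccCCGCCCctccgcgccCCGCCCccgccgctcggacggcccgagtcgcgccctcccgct
The upstream window of Tspan4 holds 3 GC boxes and the downstream one 1 E-box and 1 AP-1 motif, with no GC box. The upstream window of Tspan14 holds 6 GC boxes, and its GC content is 72.3%, against 68.7% and 63.7% for the pair of Tspan4. The other window of Tspan14 holds no GC box and 1 PU.1 motif, and its GC content is 49.0%. Among 32851 promoters of the same length 35.7% hold a GC box, 7.15% the E-box and 5.20% the AP-1 motif. Over the 10 tetraspanins, 8 of 16 windows hold a GC box, 1 the TATA box, 2 the E-box, 1 the AP-1 motif and 3 the PU.1 motif, beside 13.6% of all promoters for the TATA box and 4.55% for the PU.1 motif. These matches describe letters and were not set against binding.

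Of 21 other tetraspanins, 8 were listed and 6 had at least 20 reads. Tspan5, like Tspan14 a partner of Adam10, had 370, 212 and 334 reads and log2 ratios of −0.50 in G1 and 0.09 in G2, and Tspan3 had 227, 107 and 167 reads and ratios of −0.78 and −0.20. Tspan13 was lower in both, with 75, 37 and 39 reads and log2 ratios of −0.72 and −0.70. Tspan17, with 48, 61 and 48 reads, had ratios of 0.65 and 0.24. Tspan10, with 14, 28 and 18 reads, had 1.30 (0.33 to 2.34) and 0.60 (−0.49 to 1.72). The direction of the 10 genes was thus not that of every listed tetraspanin. Past 1.5-fold in G1, 2 of the 6 were lower and 2 higher, beside 15.6% and 13.9% of all genes. In G2, 1 was lower and 1 higher, beside 19.5% and 10.3%. The median of the 6 was −0.54 in G1 and 0.17 in G2, where that of the 10 was −0.59.

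Most membrane partners of tetraspanins also had log2 ratios below 0, 15 of 19 in G1 and 16 of 19 in G2, beside 51.5% and 54.6% of all genes. The list was chosen with earlier results of these data known, so these counts describe the list and test nothing. Of 22 partners 19 were listed, all with at least 20 reads, and 12 were past 1.5-fold lower in G1, beside 15.6% of all genes, and 2 higher, beside 13.9%, with a median of −0.71. In G2 again 12 were past 1.5-fold lower, beside 19.5% of all genes, and 2 higher, beside 10.3%, with a median of −0.76. The 2 higher were Emb and Itga6 in both comparisons. Igsf8, the direct partner of Cd9 and Cd81, had 1036, 371 and 391 reads and log2 ratios of −1.18 and −1.17, and Adam17, a shedding protease bound by Cd9, had ratios of −0.95 and −0.84. Adam10, the protease carried by Tspan14, had 891, 580 and 725 reads and ratios of −0.32 and −0.06, closer to 0 than those of Tspan14.

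Of 8 listed integrin chains, the adhesion receptors that tetraspanins hold in the membrane, 7 had log2 ratios below 0 in both comparisons. Of all genes with at least 20 reads, 51.5% lay below 0 in G1 and 54.6% in G2, each comparison taken alone. Itga6, a chain of integrins that bind laminin, had 8, 10 and 13 reads and ratios of 0.62 (−0.87 to 2.17) in G1 and 0.94 (−0.44 to 2.42) in G2, within counting error of 0. Itga4 had 16759, 7898 and 8255 reads and log2 ratios of −0.78 in both comparisons, Itga5 had −1.18 and −0.88, and Itgb1 had −0.78 and −0.32. The leukocyte integrin chains Itgb2, Itgam, Itgal and Itgax had −1.03, −0.74, −0.86 and −0.65 in G1 and −0.63, −2.60, −3.23 and −0.55 in G2. Those of Itgam and Itgal in G2 lay beyond the −1.14 of Tspan4, the lowest tetraspanin.

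Cd44, the hyaluronan receptor, had ratios of −0.71 and −1.25, Icam1 −0.79 and −0.76, and Cd47 −0.59 and −0.73. Cd74, the invariant chain, had −0.51 and −0.25. Clec7a, the glucan receptor that binds Cd37, had −0.35 and −1.69, and the scavenger receptor Cd36 had 0.35 and −0.94, while Emb had 0.97 and 0.60.

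The log2 ratios of vesicle sorting genes lay around 0. Of 16 listed genes 15 had values, with a median log2 ratio of 0.08 in G1 and 0.00 in G2, and 1 was past 1.5-fold lower in each, beside 15.6% and 19.5% of all genes. In G1, 1 was past 1.5-fold higher, Tsg101, beside 13.9%, and in G2 none was, beside 10.3%. The lower gene was Lamp2, a membrane protein of lysosomes, with 1472, 780 and 711 reads and ratios of −0.62 and −0.81, and its relative Lamp1 had −0.56 and −0.29. Sdcbp, or syntenin, the adaptor that binds Cd63, had 2147, 2170 and 1814 reads and ratios of 0.32 and 0.00, against −0.79 and −0.28 for Cd63. Rab7, a late endosome GTPase, had 0.08 and 0.27, and Tsg101, a subunit of the ESCRT sorting machinery, had 0.64 and 0.23. No test compared the lists.

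**Figure D4:**
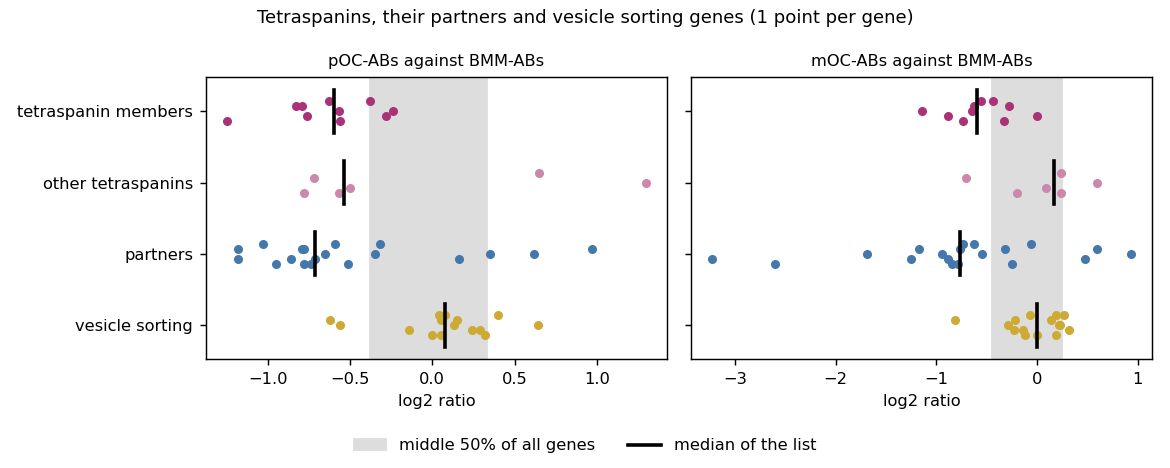
Log2 ratios in G1 (left) and G2 (right), 1 point per gene with at least 20 reads, for the 10 tetraspanins, 6 other tetraspanins, 19 partners and 15 vesicle sorting genes, with list medians as black bars and the middle 50% of all genes in grey. The medians of the 10 tetraspanins and of their partners are −0.60 and −0.71 in G1 and −0.59 and −0.76 in G2, while those of vesicle sorting are 0.08 and 0.00.

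The genes of cell fusion went both ways. Dcstamp, Ocstamp and Atp6v0d2, which osteoclasts need to fuse, had log2 ratios of 0.98, 0.69 and 2.52 in G1 and 1.18, 2.56 and 3.88 in G2, and Tm4sf19 had 0.63 and 1.88. Sirpa, the receptor of Cd47, had −0.87 and −0.57, Adam8 −1.24 and −0.85, Trem2 −1.04 and −1.13, and its adaptor Tyrobp −0.69 and −0.69. The ratios of Cd9, −1.25 and −0.73, and of Cd81, −0.38 and −0.56, were on the side of these last 4 genes. All 7 macrophage markers lay on that side in both comparisons, beside 51.5% of all genes in G1 and 54.6% in G2. Past 1.5-fold lower were 6 of them in each, beside 15.6% in G1 and 19.5% in G2. Csf1r had −1.60 and −1.10, Cd14 −0.93 and −1.63 and Lyz2 −1.25 and −2.95, although Cd68 had −0.17 and −0.15. The part of the macrophage content in the tetraspanin ratios was not tested.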

How the data were processed

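Total AB RNA from 3 mouse libraries, 1 each of BMM-, pOC- and mOC-ABs, was purified on poly-T beads, fragmented and sequenced as paired-end TruSeq libraries. The authors deposited tables of mRNAs and lncRNAs with read counts and FPKM per transcript, and a table of circRNAs with junction read counts and SRPBM, a signal of junction reads scaled by a constant per library. The submitters' processing notes name FastQC, HISAT2, StringTie and GRCm38, without versions. The counter, the annotation, the strand setting and the treatment of reads shared by transcripts are not given in the sources used here. All 145 member FPKM values above 0 equalled, within 1%, the deposited counts divided by transcript length and mRNA-table total.

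Transcripts were assigned to symbols with GENCODE M21, which left 211 without a gene. Counts were summed per symbol and divided by the mRNA-table total of 9100082 (BMM-ABs), 7387317 (pOC-ABs) or 7705592 (mOC-ABs) reads. With 1 library per group no test was run. Ratios carry Clopper-Pearson 95% intervals, levels exact Poisson intervals and shares exact binomial intervals. Only the ratio intervals were tested on simulated data, for G1 and with counting error alone. The limit of detection was taken as 3 reads. Folds of 1.5 and 2 were read against all genes with at least 20 reads, and against those with at least 400 reads, a limit chosen after the values were seen. Promoter windows came from RefSeq on GRCm38.p6, and no protein sequence was used here. The analysis used python 3.11.15, numpy 2.4.6, pandas 2.3.3, scipy 1.17.1 and matplotlib 3.10.9.

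The text names the 10 members, their transcripts with at least 10% of a gene's reads in a library, and, of the lists, genes past 1.5-fold with at least 100 reads and the 3 with most reads. For Cd9 and Tspan4 it names the 3 nearest genes. Adam10, Itga6, Tspan10, Cd68, Csf1r, Cd14, Lyz2, Chid1 and Cdk4 were added after their values were seen. The members and lists were chosen with earlier results of these data known. The 7 alternatives were median-of-ratios size factors, the upper quartile (percentile 75), the total of both tables, the deposited FPKM, coding transcripts only, a pseudocount of 1 RPM (1 read per 1000000) and a filter at 20 reads.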

Additional observations from a re-analysis of the deposited data

Results flagged for a closer look

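The lncRNA table was not used in the comparisons. It lists 16 lncRNAs at the loci of 7 of the 10 genes, and 12 of them had more than 3 reads in a library, the limit set for a count of 0. At Cd9, in BMM-, pOC- and mOC-ABs, NONMMUT058887.2 had 68, 26 and 21 reads, NONMMUT058888.2 65, 16 and 15, and ENSMUST00000187542 13, 19 and 4. At the same locus ENSMUST00000204130 had 3, 7 and 0 reads, NONMMUT058890.2 4, 6 and 5, and ENSMUST00000187724 1, 4 and 0. NONMMUT058887.2 and NONMMUT058888.2 were thus highest in BMM-ABs, as Cd9 was, with log2 ratios of −1.09 and −1.72 in G1 on the RPM scale of the mRNA table, while ENSMUST00000187542 had more reads in pOC-ABs.

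At Cd151, ENSMUST00000097947 had 37, 29 and 9 reads, and at Cd81, NONMMUT064299.2, whose locus spans all 2879 exonic bases of Cd81, had 18, 7 and 18. At Tspan4, NONMMUT064230.2 had 31, 9 and 13 reads and NONMMUT151931.1 had 9, 1 and 2, and at Cd82, NONMMUT107520.1 had 4, 0 and 0. At Tspan14, MSTRG.14605.1, at 40947764 to 40949660 of chromosome 14 between the starts of Tspan14-201 and Tspan14-202, had 29, 5 and 15 reads. Reads that a lncRNA shares with the tetraspanin at its locus cannot be told apart here.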

How the results depend on the processing

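Over the 7 alternatives, all 70 log2 ratios of the 10 genes in G1 stayed below 0, from −1.45 to −0.16, and 65 of 70 in G2, from −1.24 to 0.28, where the others were values of Cd37. In G3 they ran from −0.69 to 0.62. Cd9 was past 2-fold lower in G1 and Tspan4 in G2 under each alternative. The filter at 20 reads could not change a member ratio, since Cd151, the member with the fewest reads, had 409. Its values repeat the main ones. Dividing by the total of the mRNA and lncRNA tables moved the median of all genes to −0.22 in G1 and −0.15 in G2. With that total 2 members were past 2-fold in G1, Cd9 and Tspan14, and 2 were past 1.5-fold in G3, Cd9 and Cd63, both higher. With the upper quartile 3 members were past 1.5-fold in G2 in place of 5. In G3, 1 member was past 1.5-fold lower with the deposited FPKM, Tspan4 at −0.69, and 1 with coding transcripts only, Cd81 at −0.64. The leading transcript differed between libraries in 3 members among coding transcripts, where Cd81 no longer did, and in 5 by FPKM, where Cd37 was added. Other alternatives left these counts within 1.5 times. The shares of all genes given above belong to the main scaling, and none is given for the alternatives. The counts under the alternatives therefore show only how the members moved. No paired analysis was possible because each group has 1 library, and no library could be left out. Genes near the 0.330 to 0.406 RPM that 3 reads equal could not be compared.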

Other observations

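No circRNA of the 1372 in the circRNA table was assigned to any of the 10 tetraspanins. Among the other tetraspanins 1 circRNA was listed, from Tspan3, with 7, 0 and 2 junction reads in BMM-, pOC- and mOC-ABs, out of 3413, 2380 and 4014 junction reads in all.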
